A study of Mus musculus with 32 samples.

Results

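Bone marrow-derived macrophages of wild-type mice (BMDM-WT) after 18 h of stimulation with LPS were compared with the same cells at 0 h. Each time had 4 libraries, so that 8 of the 32 RNA-seq libraries of the series carry the comparison, and they were chosen by the genotype and time in their labels. The donors were male C57Bl6/J mice of 6 to 12 weeks, wild-type littermates of mice that lack Nr4a1 (Nur77) in the whole body. Bone marrow cells had been grown for 7 days in medium conditioned by L929 fibroblasts, and LPS was given at 100 ng/ml. The 4 BMDM-WT libraries at 1 h and the 4 at 5 h are used for the course of single genes, and the 16 libraries of Nur77-deficient cells (BMDM-Nur77-KO), also with 4 at each time, entered only the shared estimate of the spread. The methods describe cells plated in 4 replicates and not how many animals they came from, so the p-values measure the spread between these samples, which may be technical. No library of cells kept for 18 h without LPS was analysed here, and the effects of LPS and of 18 h of further culture cannot be told apart. The RNA is bulk, so that fewer cells of a type and less RNA per cell cannot be told apart either.

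LPS, a component of the outer membrane of Gram-negative bacteria, is passed by CD14 to the receptor complex of TLR4 and MD-2. The adaptor MyD88 then activates NF-kB and MAP kinases, which turn on cytokine genes within minutes to hours, while the adaptor TRIF activates IRF3 and the gene of interferon beta. Secreted interferon beta acts back on the macrophages through its receptor, and so starts a later wave of antiviral and antigen presentation genes.

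Depth was alike in both groups, at 10522140 to 15214524 counts per library at 0 h and 11080625 to 12418867 at 18 h, and the log2 values of replicates correlated at 0.9864 or more within each group. Replicate 3 at 18 h stood apart, since its highest correlation with the other 3 was 0.9889 and theirs with each other reached 0.9945. Without it, 1454 genes were called higher at 18 h than at 0 h and 1628 lower. With it, these counts were 1479 and 1614. The 10 macrophage markers examined (among them Adgre1, Csf1r, Cd68 and Lyz2) were all present, with a summed level of 16230 to 22159 CPM (counts relative to the scaled library size) at 0 h and 16010 to 16856 CPM at 18 h. Markers of B cells, fibroblasts, erythroid cells and mast cells summed to under 5 CPM in each library. Values are given as CPM, or as RPKM, which also divides by transcript length, where genes are compared with each other, as mean ± SD over 4 libraries. Differences are log2 fold changes of edgeR's quasi-likelihood test ± SE with p-values adjusted by the Benjamini-Hochberg method, where a gene is called if its adjusted p was below 0.05 with a fold change of more than 1, up or down, on the log2 scale.

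Of 11272 genes tested, 1479 were called higher at 18 h than at 0 h (13.1%) and 1614 lower (14.3%). These percentages are the background for the counts in each gene list. The TMM factors that scale the libraries were 1.21 to 1.27 at 0 h and 0.928 to 0.976 at 18 h, which centres the fold changes on a median of -0.01. With library totals in place of TMM, an alternative chosen after the data were seen, that median was -0.37, and 1050 genes were called higher and 2591 lower. Changes are therefore stated relative to the median gene. Where library totals moved a list's count by over 1.5 times, the other count is given beside it. The log2 fold change was above 2 in 662 of the called genes and above 5 in 146 of them, and it was below -2 in 624 and below -5 in 80. In 1443 of the genes called higher and 1592 of those called lower, the 4 values at 18 h lay entirely outside the 4 values at 0 h. The test had picked these genes from the same values, so this separation is no further support. It was not counted over all tested genes. In 91 of the genes called higher, no library at 0 h had more than 3 counts, and in 106 of those called lower no library at 18 h did. Such genes are described by a bound, the ratio of the mean at one time to the level of 3 counts at the other, which covers counting error only.

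**Figure D1:**
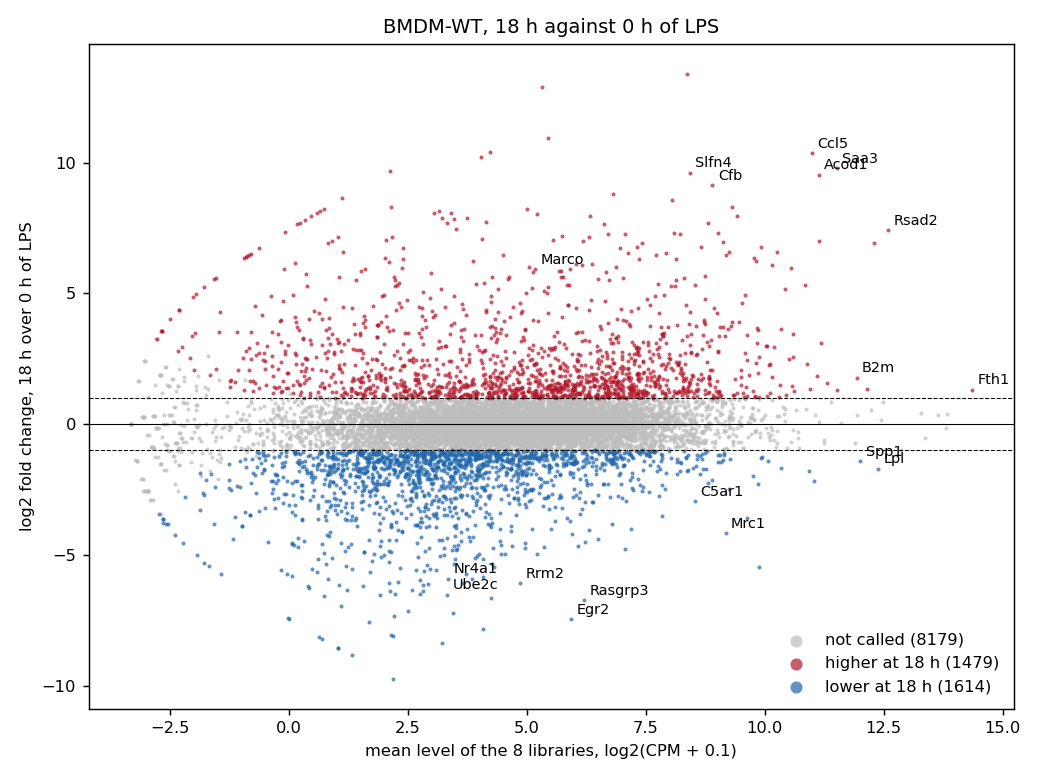
Log2 fold change at 18 h over 0 h (vertical axis) against the mean log2(CPM + 0.1) of the 8 BMDM-WT libraries (horizontal axis), 1 point per tested gene; dashed lines mark log2 fold changes of 1 and -1. The 1479 genes called higher (red) reach further from 0 than the 1614 called lower (blue), and genes called higher lie among the most abundant of all, such as Fth1 and Rsad2.

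The distribution of the counts shifted with these changes. The genes called higher took 10.7% ± 0.112 of all counts at 0 h and 37.0% ± 0.236 at 18 h, while those called lower went from 14.1% ± 0.386 to 3.41% ± 0.0580 (mean ± SD, n = 4). These shares describe the genes picked by the test and carry no test of their own. Among the genes called higher, those with the highest RPKM at 18 h were Fth1, the heavy chain of the iron store ferritin, at 19885 ± 605 RPKM, Saa3, an acute-phase apolipoprotein, at 10488 ± 1380.4 RPKM, the chemokine gene Ccl5 at 7592 ± 856 RPKM, B2m, the light chain of MHC class I, at 6998 ± 688 RPKM, and Rsad2, the gene of the antiviral enzyme viperin, at 3248 ± 343 RPKM. Fth1, B2m and several other genes named below have near-identical copies or close paralogs in the genome, and since reads of low mapping quality were removed their absolute levels are uncertain.

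**Figure D2:**
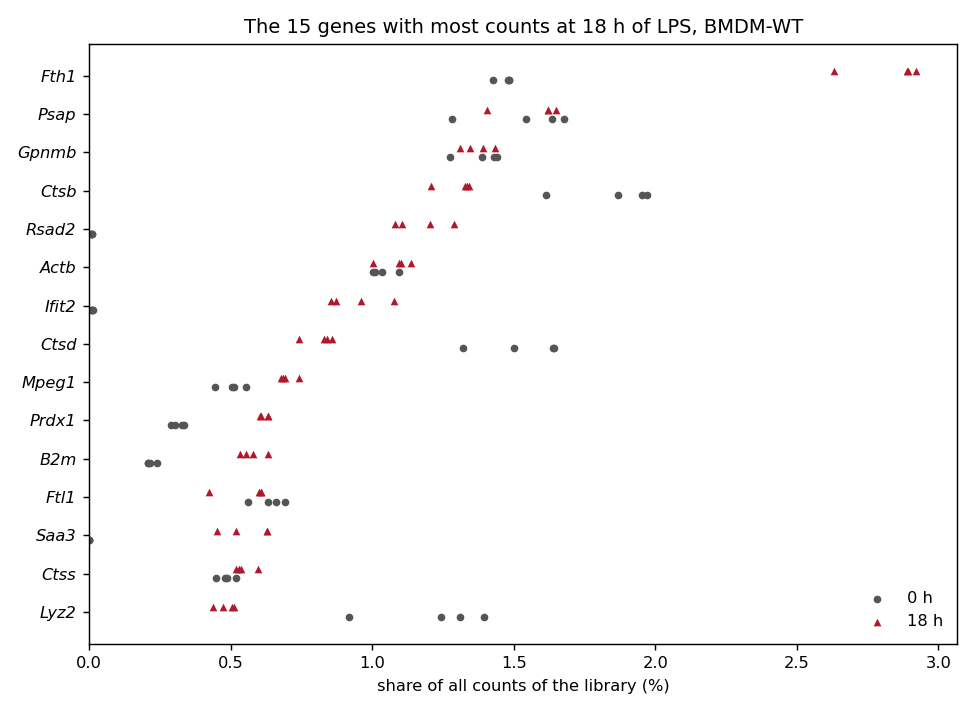
Share of all counts of a library (horizontal axis, percent) taken by each of the 15 genes with most counts at 18 h (vertical axis), 1 point per library, circles for 0 h and triangles for 18 h. Rsad2, Ifit2 and Saa3 sit near 0 in all 4 libraries at 0 h and stand among the 15 most abundant genes at 18 h, while the lysosomal proteases Ctsb and Ctsd and the lysozyme gene Lyz2 take a smaller share at 18 h. The shares are of unscaled counts. With TMM, Ctsb, Ctsd and Lyz2 were not called (log2 fold change -0.14, -0.54 and -0.98).

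Interferon-stimulated genes were called higher throughout. All 44 tested members of a list of antiviral interferon-stimulated genes were called higher, with a median log2 fold change of 3.79 (median of all tested genes -0.01), and the list's share of all counts went from 0.459% ± 0.0311 to 5.91% ± 0.264. Rsad2 was measured at 76.6, 63.9, 86.1 and 59.6 CPM at 0 h and 11408, 12725, 13915 and 11095 CPM at 18 h. Rsad2 had a log2 fold change of 7.42 ± 0.17 (adjusted p = 1.1e-25). The 2 groups of values were far apart, and the spread within each was small beside the difference. Oasl1, which restrains the translation of the interferon regulator IRF7, was measured at 0.763, 1.40, 1.97 and 1.31 CPM at 0 h and 517, 587, 455 and 547 CPM at 18 h. Oasl1 had a log2 fold change of 8.58 ± 0.22 (adjusted p = 2.8e-24). Isg20, an exonuclease that degrades RNA, rose from 1.38 ± 0.421 CPM to 208 ± 21.0 CPM. Isg20 had a log2 fold change of 7.28 ± 0.27 (adjusted p = 1.6e-20). Ifi44 rose from 3.81 ± 0.970 CPM to 593 ± 106 CPM. Ifi44 had a log2 fold change of 7.26 ± 0.32 (adjusted p = 1.5e-18). The smallest change was that of Trim25, a ubiquitin ligase of the RIG-I pathway (log2 fold change 1.11 ± 0.07, adjusted p = 1.5e-15). With library totals Trim25 was within the limit, at 0.74, and 43 members were called.

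The guanylate-binding proteins (GBPs) and immunity-related GTPases (IRGs), which attack the vacuoles of intracellular microbes, were also called higher without exception, 21 of 21, with a median log2 fold change of 5.34. Gbp2, the member with the highest RPKM, was measured at 97.7, 69.4, 99.1 and 86.1 CPM at 0 h and 3349, 3588, 3964 and 3384 CPM at 18 h. Gbp2 had a log2 fold change of 5.34 ± 0.30 (adjusted p = 5.4e-16). Gbp4 was measured at 3.89, 2.70, 2.72 and 2.25 CPM at 0 h and 283, 327, 350.4 and 293 CPM at 18 h. Gbp4 had a log2 fold change of 6.76 ± 0.44 (adjusted p = 1.3e-14). No library at 0 h reached the level of any library at 18 h. Gbp2b and Gbp11 had at most 3 counts in each library at 0 h, and their levels at 18 h, 21.8 ± 3.36 CPM and 19.8 ± 2.83 CPM, were at least 105-fold and 95.4-fold higher than that floor. The GBPs are close paralogs, and Tgtp1 (log2 fold change 7.95 ± 0.28, adjusted p = 3.1e-21) and Tgtp2 (log2 fold change 5.58 ± 0.27, adjusted p = 1.6e-17) are near-identical neighbours, so that the split of reads among them is uncertain.

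Genes of the interferon signalling machinery were more often called higher than lower. Of 23 STAT, JAK and IRF factors and interferon receptors, 13 were called higher (8 with library totals) and 2 lower (3 with library totals or without replicate 3 at 18 h). The share called higher was above the background of 13.1%, and the share called lower was below the background of 14.3%. Irf7, the factor that amplifies interferon production, was measured at 18.8, 19.2, 26.9 and 19.5 CPM at 0 h and 1757, 1885, 1554 and 1725 CPM at 18 h (log2 fold change 6.36 ± 0.15, adjusted p = 3.4e-25), and at 732 ± 23.3 CPM at 5 h, so that it stood higher at 18 h than at 5 h (log2 fold change 1.24 ± 0.12, adjusted p = 1.9e-10). Stat2 rose from 87.5 ± 5.90 CPM to 1319.8 ± 41.8 CPM. Stat2 had a log2 fold change of 3.92 ± 0.09 (adjusted p = 9.7e-26). Irf4, a factor linked to alternative macrophage activation, went the other way, from 7.14 ± 0.482 CPM to 0.312 ± 0.106 CPM. Irf4 had a log2 fold change of -4.46 ± 0.28 (adjusted p = 5.5e-15). Irf8, at 186 ± 6.44 CPM before stimulation, 1393 ± 36.1 CPM at 5 h and 152 ± 14.4 CPM at 18 h, was not called at 18 h against 0 h. Ifnb1, the gene of interferon beta, had no more than 3 counts in any library at 0 h. It was measured at 20.4 ± 1.72 CPM at 1 h and 4.04 ± 0.944 CPM at 5 h. At 18 h it was at 2.11, 1.91, 2.44 and 2.16 CPM, at least 10.4-fold above the floor (adjusted p = 3.8e-12). Its part in the changes above was not tested.

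Promoters of these genes were searched for the core of the interferon-stimulated response element, ISRE, written GAAANNGAA on either strand. The reference promoters of RefSeq (GRCm38.p6) run from 250 bases before to 50 bases after each transcription start, and 8923 of the genes tested have at least 1. The core was found in 8.56% of all 32851 promoters and in 7.44% of those of the genes tested. It was found in 13.5% of the promoters of genes called higher and in 6.74% of those called lower. Among promoters of called members it was found in 11 of 13 for GBPs and IRGs, in 20 of 41 for antiviral genes, and in 4 of 15 for the MHC class I list. The 250 bases before the start of Rsad2 (chr12:26456453-26456702, minus strand) and of Gbp5 (chr3:142496684-142496933, plus strand) are shown as the members of the first 2 lists with the largest change whose promoter holds the core, without the near-identical Tgtp genes and genes at the floor, each 5′ to 3′ on the strand of the gene with the core in capitals. It lies 119 and 164 bases before the start, respectively, and reads as its reverse complement on the gene's strand in both. A match is a description of the letters and not evidence of binding.
Rsad2: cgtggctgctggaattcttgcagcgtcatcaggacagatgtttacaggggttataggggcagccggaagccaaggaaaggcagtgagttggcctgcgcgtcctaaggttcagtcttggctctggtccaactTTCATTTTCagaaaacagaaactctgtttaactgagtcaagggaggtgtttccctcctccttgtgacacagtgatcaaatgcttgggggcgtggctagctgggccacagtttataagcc
Gbp5: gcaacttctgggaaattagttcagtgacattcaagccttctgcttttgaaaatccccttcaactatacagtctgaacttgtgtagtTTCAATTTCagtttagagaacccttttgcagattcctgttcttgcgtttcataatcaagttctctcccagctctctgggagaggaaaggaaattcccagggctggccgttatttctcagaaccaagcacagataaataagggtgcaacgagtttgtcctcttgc

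Gbp5 was measured at 14.5, 9.45, 16.1 and 11.3 CPM at 0 h and 1043, 1153, 1259.9 and 1120 CPM at 18 h (log2 fold change 6.48 ± 0.23, adjusted p = 4.9e-21), with a higher mean at 5 h, 4359.7 ± 108 CPM (log2 fold change -1.93 ± 0.18, adjusted p = 1.2e-10). Compared with 5 h, 1789 genes were called higher at 18 h (15.9%) and 1608 lower (14.3%). Of the antiviral genes, 5 were called higher than at 5 h and 8 lower, and of the GBPs and IRGs 2 were called higher and 6 lower. The shares called higher are below the background and those called lower above it. The comparisons with 0 h and with 5 h share the 18 h libraries.

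**Figure D3:**
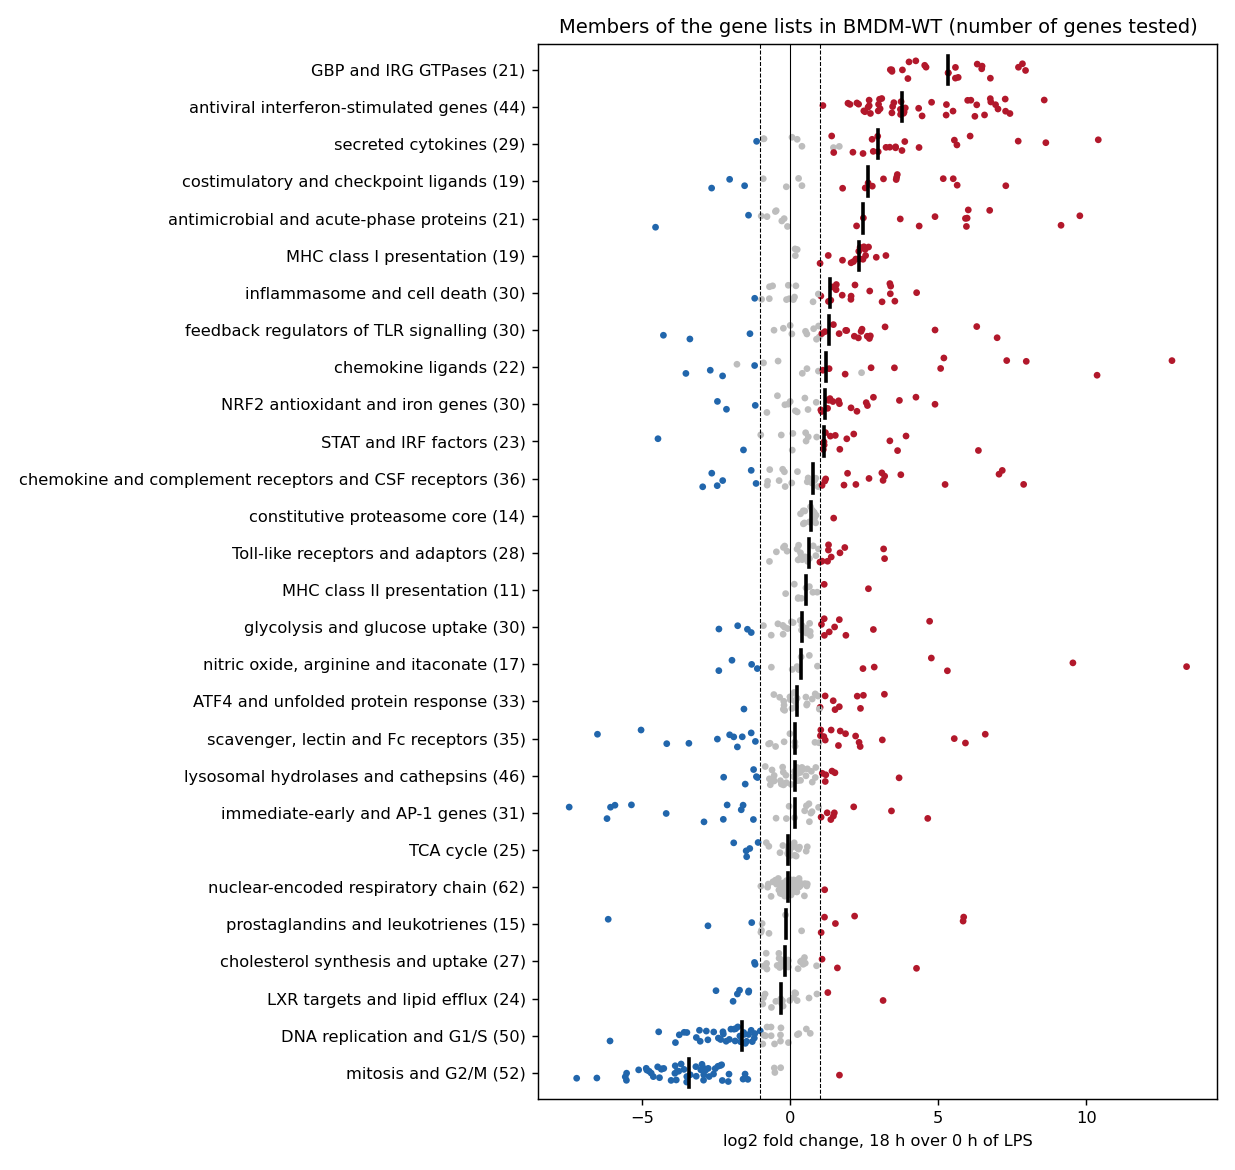
Log2 fold change at 18 h over 0 h (horizontal axis) of every tested member of 28 gene lists (vertical axis, number of tested genes in brackets), 1 point per gene; red and blue points are called higher and lower, grey points are not called, black bars are list medians and dashed lines mark 1 and -1. The GBP and IRG list has the highest median, 5.34, and the mitosis list the lowest, -3.43.

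Many secreted cytokine genes were called higher than at 0 h, and many were called lower than at 5 h. Of 29 tested cytokine genes, 21 were called higher than at 0 h and 1 lower, with a median log2 fold change of 2.96, and against 5 h 4 were higher and 17 lower. With library totals, 3 were lower than at 0 h. Il1b, the gene of the pyrogen interleukin-1 beta, was measured at 3.21, 2.91, 3.93 and 5.08 CPM at 0 h and 178, 173, 166 and 186 CPM at 18 h. Il1b had a log2 fold change of 5.55 ± 0.18 (adjusted p = 2.9e-22). Its mean was 1992 ± 28.3 CPM at 5 h, so that the 18 h libraries stood between the 2 earlier times (log2 fold change -3.50 ± 0.15, adjusted p = 4.8e-19, against 5 h). Tnf was measured at 44.0, 38.4, 36.3 and 44.0 CPM at 0 h and 271, 290.3, 254 and 294 CPM at 18 h (log2 fold change 2.77 ± 0.13, adjusted p = 8.0e-18), after a mean of 3733 ± 46.9 CPM at 1 h and 1326 ± 16.5 CPM at 5 h. Il1a rose from 2.11 ± 0.562 CPM to 141 ± 13.8 CPM. Il1a had a log2 fold change of 6.08 ± 0.17 (adjusted p = 2.1e-23). Il10, which dampens the macrophage's own cytokine output, went from 1.08 ± 0.174 CPM to 5.93 ± 0.973 CPM (log2 fold change 2.46 ± 0.20, adjusted p = 3.4e-12) after 208 ± 25.2 CPM at 1 h.

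Other cytokine genes started from the floor. Il6 had no count in the libraries at 0 h and was measured at 3.75, 3.24, 6.27 and 3.20 CPM at 18 h, at least 19.8-fold above the floor (adjusted p = 7.7e-10). At 5 h it had reached 234 ± 22.8 CPM, a level from which the 18 h libraries were far removed (log2 fold change -5.82 ± 0.25, adjusted p = 1.8e-16). Il12b, the shared chain of interleukins that direct T cell responses, was measured at 40.3, 36.2, 38.9 and 32.6 CPM at 18 h, at least 179-fold above its floor (adjusted p = 1.3e-24), and at 303 ± 20.5 CPM at 5 h. The member with the highest RPKM was Il1rn, the secreted antagonist of interleukin-1, at 247, 277, 249 and 294 CPM at 0 h and 1898, 2303, 2273 and 1835 CPM at 18 h. Il1rn had a log2 fold change of 2.96 ± 0.15 (adjusted p = 4.7e-17). Il1rn stood at 1046 ± 123 RPKM at 18 h, against 129.6 ± 6.30 RPKM for Il1b, 71.5 ± 6.97 RPKM for Il1a and 169 ± 11.4 RPKM for Tnf, levels that compare transcripts per length. Il18bp, which binds and blocks interleukin-18, also rose, from 13.3 ± 3.73 CPM at 0 h and 53.7 ± 5.95 CPM at 5 h to 195 ± 17.1 CPM at 18 h (log2 fold change 3.87 ± 0.14, adjusted p = 8.0e-21).

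Chemokine genes were called in both directions. Of 22 tested, 11 were called higher and 4 lower, with a median log2 fold change of 1.21. Against 5 h, 17 of the 22 were called lower and 1, Ccl5, higher. Ccl5, which attracts T cells and monocytes, was measured at 3.51, 2.03, 3.33 and 3.56 CPM at 0 h and 4239, 4266, 3356 and 4294 CPM at 18 h (log2 fold change 10.37 ± 0.28, adjusted p = 5.3e-24), and at 5 h it had 1901 ± 86.0 CPM (log2 fold change 1.09 ± 0.18, adjusted p = 4.2e-06). Cxcl9, Cxcl10 and Cxcl11, the ligands of CXCR3 on activated T cells, were all called higher. Cxcl10 was measured at 4.89, 4.99, 5.60 and 6.24 CPM at 0 h and 1282, 1408, 1444 and 1328 CPM at 18 h (log2 fold change 7.98 ± 0.11, adjusted p = 3.8e-30), Cxcl9 rose from 3.47 ± 0.792 CPM to 545 ± 37.9 CPM (log2 fold change 7.32 ± 0.50, adjusted p = 5.7e-14), and Cxcl11 from the floor to 72.3, 93.3, 83.5 and 67.9 CPM, at least 382-fold higher (adjusted p = 2.0e-21). The neutrophil attractants Cxcl1 and Cxcl2 had their highest means at 1 h, 397 ± 30.0 CPM and 2055 ± 63.4 CPM, and at 18 h they were at 0.0923 ± 0.0780 CPM and 7.09 ± 0.756 CPM. Neither was called against 0 h, although Cxcl1 was called lower with DESeq2, with the compared libraries alone and with library totals. Cxcl3, of the same group of neutrophil attractants, was called higher (adjusted p = 9.4e-05), from the floor at 0 h to 0.458, 0.667, 0.609 and 0.259 CPM at 18 h, at least 2.40-fold higher. Ccl6, another CC chemokine, was called lower, from 1528 ± 84.1 CPM to 315 ± 20.3 CPM. Ccl6 had a log2 fold change of -2.28 ± 0.08 (adjusted p = 8.0e-22).

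The promoter of Cxcl10 (chr5:92348890-92349139, minus strand) is the one of the called chemokines above the floor with the largest change that holds a kB element, written GGANTTTCC and searched on either strand. That element was found in 1.25% of all promoters, in 2.78% of those of genes called higher and in 1.39% of those of genes called lower. It stands in capitals in the 250 bases before the start, 158 bases before it. The same bases also hold a match to the ISRE core, left in small letters, nearer the 5′ end. Among promoters of chemokines called higher, the kB element was found in 2 of 6 and the ISRE core in 2 of 6. The bases shown for Gbp5 likewise hold a kB element in small letters.
Cxcl10: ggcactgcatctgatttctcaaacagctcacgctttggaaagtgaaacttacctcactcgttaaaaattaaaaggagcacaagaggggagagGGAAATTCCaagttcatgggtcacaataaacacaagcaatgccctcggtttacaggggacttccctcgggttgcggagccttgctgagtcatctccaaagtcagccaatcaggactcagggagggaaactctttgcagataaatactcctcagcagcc

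**Figure D4:**
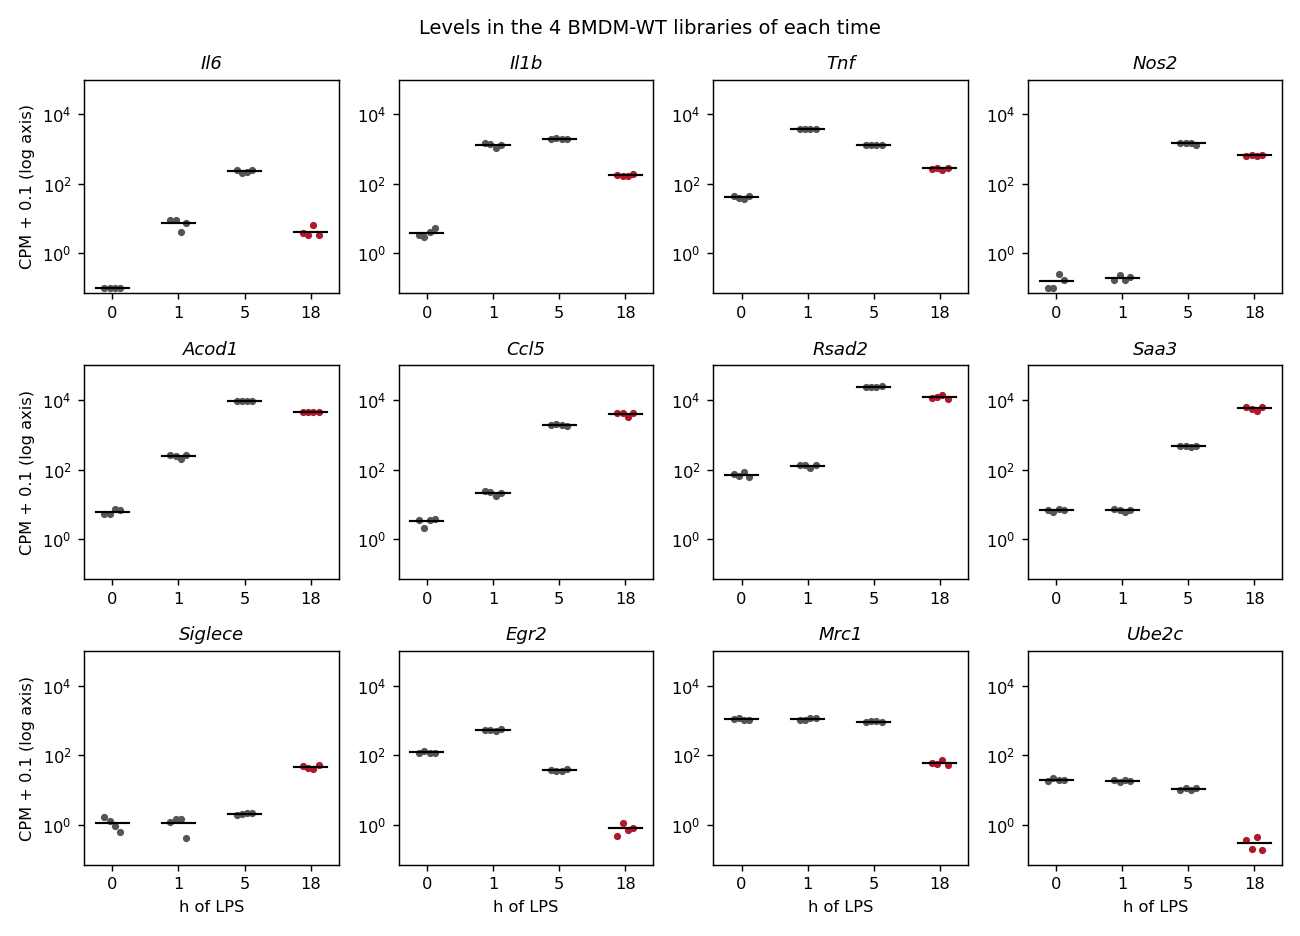
Levels of 12 genes at 0, 1, 5 and 18 h of LPS (horizontal axes) as CPM + 0.1 on a log axis, 1 point per library with 18 h in red, and the mean of 4 libraries as a bar. Il6, Il1b and Tnf at 18 h lie below 5 h, Ccl5, Saa3 and Siglece reach their highest values at 18 h, and Egr2, Mrc1 and Ube2c their lowest.

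Nitric oxide and itaconate genes remained among the largest changes of all. Nos2, the inducible nitric oxide synthase, had at most 3 counts in each library at 0 h and was measured at 617, 691, 617 and 695 CPM at 18 h, at least 3159-fold above that floor (adjusted p = 1.3e-25). Acod1, the enzyme that makes the antimicrobial metabolite itaconate, was measured at 5.19, 5.19, 7.11 and 6.53 CPM at 0 h and 4480.5, 4482, 4441 and 4561 CPM at 18 h. Acod1 had a log2 fold change of 9.55 ± 0.21 (adjusted p = 4.4e-26). Both were below their means at 5 h, 1456 ± 74.2 CPM (log2 fold change -1.15 ± 0.14, adjusted p = 3.1e-08) and 9472 ± 169.6 CPM (log2 fold change -1.08 ± 0.14, adjusted p = 6.7e-08). The enzyme and carrier that supply arginine to nitric oxide synthase rose too. Ass1, which regenerates arginine from citrulline, went from 2.88 ± 0.415 CPM to 115 ± 7.18 CPM (log2 fold change 5.31 ± 0.17, adjusted p = 3.0e-22), above its 31.7 ± 3.05 CPM at 5 h, and the arginine carrier Slc7a2 from 13.0 ± 0.764 CPM to 354 ± 51.0 CPM. Slc7a2 had a log2 fold change of 4.77 ± 0.16 (adjusted p = 1.7e-21). Arg1, the arginase of alternatively activated macrophages, was low throughout and fell from 1.18 ± 0.270 CPM to 0.291 ± 0.130 CPM. Arg1 had a log2 fold change of -1.96 ± 0.44 (adjusted p = 0.00023). Spermidine synthase, Srm, of the polyamine route, fell as well (log2 fold change -2.41 ± 0.25, adjusted p = 6.4e-10). Of the 17 genes of this list, 6 were called higher and 4 lower, so the list as a whole had no common direction (median 0.37).

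Acute-phase and complement genes included several large rises. Saa3 was measured at 6.72, 5.82, 7.11 and 6.82 CPM at 0 h and 6457, 5485, 4896 and 6444 CPM at 18 h (log2 fold change 9.78 ± 0.15, adjusted p = 1.6e-29), and at 464 ± 17.6 CPM at 5 h (log2 fold change 3.65 ± 0.11, adjusted p = 3.1e-22). Cfb, factor B of the alternative complement pathway, was measured at 2.14, 1.25, 1.66 and 1.74 CPM at 0 h and 939, 979, 901 and 989.5 CPM at 18 h. Cfb had a log2 fold change of 9.15 ± 0.20 (adjusted p = 4.4e-26). Both genes had their highest means at 18 h. C3, the central complement component, rose from 46.5 ± 8.64 CPM to 2929.9 ± 65.1 CPM (log2 fold change 5.98 ± 0.13, adjusted p = 2.6e-26) and Lcn2, which binds bacterial iron carriers, from 0.978 ± 0.243 CPM to 64.9 ± 7.70 CPM. Lcn2 had a log2 fold change of 6.02 ± 0.21 (adjusted p = 2.1e-21). Lysozyme, Lyz2, the member with the highest RPKM, was at 9921 ± 1900 CPM at 0 h and 5046 ± 247 CPM at 18 h and was not called. It was called lower with library totals (log2 fold change -1.34) and without replicate 2 at 0 h (-1.10). In the list, 12 of 21 tested genes were called higher and 2 lower. Against 5 h, 8 were called higher and 5 lower.

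Most genes of antigen presentation by MHC class I were called higher, while few genes of MHC class II were called. Of 19 class I genes, 16 were called higher and none lower (median 2.32), and the 3 that were not called, Calr, Canx and Pdia3, are general chaperones of the endoplasmic reticulum. Tap1, a chain of the peptide transporter, was measured at 56.5, 54.4, 65.8 and 60.0 CPM at 0 h and 549, 598, 499 and 583 CPM at 18 h. Tap1 had a log2 fold change of 3.24 ± 0.16 (adjusted p = 1.6e-17). Nlrc5, the transactivator of class I genes, rose from 36.9 ± 4.41 CPM to 277 ± 28.4 CPM (log2 fold change 2.91 ± 0.13, adjusted p = 1.2e-18), and B2m from 1765 ± 93.8 CPM to 6019 ± 591 CPM. B2m had a log2 fold change of 1.77 ± 0.17 (adjusted p = 9.8e-11). Of 11 tested class II genes, 2 were called higher (1 with library totals) and none lower. Ciita, the transactivator of class II genes, was at 4.12, 3.01, 3.33 and 5.81 CPM at 0 h and 4.40, 4.48, 3.92 and 5.01 CPM at 18 h, 2 overlapping groups (log2 fold change 0.14 ± 0.25, adjusted p = 0.63). Cd74, the invariant chain, was at 234 ± 42.4 CPM and 284 ± 23.3 CPM, and the cathepsin gene Ctss, the member with the highest RPKM, at 3941 ± 310.5 CPM and 5718 ± 501 CPM, neither of them called.

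The subunits of the proteasome that cut peptides for class I changed their proportions. The 3 catalytic subunits of the immunoproteasome, Psmb8, Psmb9 and Psmb10, were all called higher, while of 14 core subunits of the standard proteasome 1, Psma5, was called higher (log2 fold change 1.47 ± 0.10, adjusted p = 1.0e-13) with a list median of 0.72. Psmb8 went from 47.6 ± 4.89 RPKM to 268 ± 28.0 RPKM (log2 fold change 2.49 ± 0.16, adjusted p = 1.1e-14), and its standard counterpart Psmb5 from 44.8 ± 5.04 RPKM to 81.6 ± 10.0 RPKM, which is within the limit (log2 fold change 0.86 ± 0.24, adjusted p = 0.0022). Psmb10 went from 28.3 ± 2.81 RPKM to 132 ± 15.0 RPKM (log2 fold change 2.22 ± 0.22, adjusted p = 2.3e-10), and its counterpart Psmb7 from 62.6 ± 3.86 RPKM to 88.4 ± 2.52 RPKM. Psmb9 went from 14.1 ± 1.81 RPKM to 88.2 ± 14.5 RPKM (log2 fold change 2.65 ± 0.13, adjusted p = 1.8e-17), and its counterpart Psmb6 from 133 ± 6.79 RPKM to 235 ± 17.6 RPKM. Thus at 18 h the immunoproteasome transcript was the higher of the pair in RPKM for Psmb8 and Psmb10 and the lower for Psmb9.

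**Figure D5:**
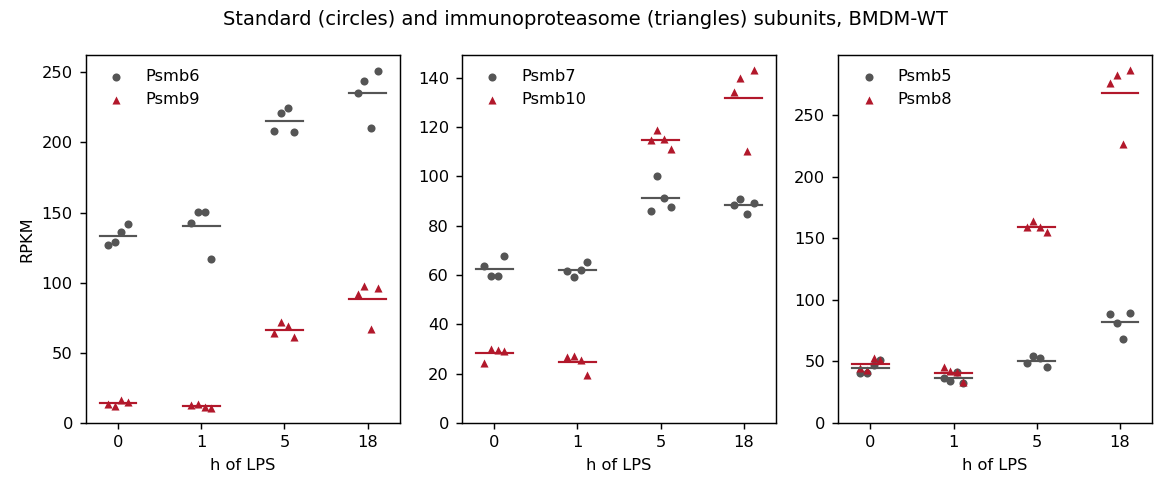
RPKM (vertical axes, from 0) of the 3 catalytic immunoproteasome subunits (triangles) and of the standard subunits they replace (circles) at 0, 1, 5 and 18 h of LPS, 1 point per BMDM-WT library with the mean as a bar. At 18 h Psmb8 and Psmb10 lie above Psmb5 and Psmb7 in all 4 libraries, and Psmb9 lies below Psmb6.

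Surface molecules that address T cells were mostly higher, 12 of 19 against 3 lower. Cd274, the gene of the checkpoint ligand PD-L1 and the member with the highest RPKM, was measured at 84.4, 64.7, 74.3 and 72.0 CPM at 0 h and 2468, 2717, 2926 and 2538 CPM at 18 h. Cd274 had a log2 fold change of 5.17 ± 0.15 (adjusted p = 1.6e-23). Cd40, a receptor for T cell help, rose from 4.53 ± 0.428 CPM to 207 ± 20.6 CPM (log2 fold change 5.51 ± 0.15, adjusted p = 1.6e-23) and had been at 1794 ± 34.9 CPM at 5 h. Cd69, an early activation marker, rose from 1.67 ± 0.148 CPM to 263 ± 41.0 CPM (log2 fold change 7.28 ± 0.18, adjusted p = 9.0e-25), and Cd86, a costimulatory ligand of CD28, from 28.5 ± 3.97 CPM to 177 ± 17.8 CPM. Cd86 had a log2 fold change of 2.64 ± 0.13 (adjusted p = 1.7e-17). The other ligand of CD28, Cd80, was not called, at 15.8 ± 2.34 CPM and 14.4 ± 1.27 CPM.

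Of the receptors that sense microbes, some were called higher. Of 28 tested Toll-like receptor, adaptor and kinase genes, 10 were called higher (5 with library totals) and none lower (1 with library totals). Tlr4 itself was measured at 156, 192, 150.1 and 140.2 CPM at 0 h and 121, 118, 200.4 and 107 CPM at 18 h (log2 fold change -0.22 ± 0.20, adjusted p = 0.33), and Cd14 at 425, 448, 495 and 512 CPM at 0 h and 309.5, 289, 251 and 311 CPM at 18 h (log2 fold change -0.70 ± 0.18, adjusted p = 0.0012). Neither passed the limit, although Cd14 did with library totals (log2 fold change -1.06). Tlr4 was highest in replicate 3 at 18 h, and without that library its log2 fold change was -0.47. Tlr9, the endosomal receptor for DNA, was measured at 25.3, 26.9, 35.3 and 32.6 CPM at 0 h and 258, 302, 256 and 255 CPM at 18 h (log2 fold change 3.16 ± 0.14, adjusted p = 1.6e-18), and it had been at 33.8 ± 5.25 CPM at 5 h (log2 fold change 2.98 ± 0.14, adjusted p = 1.1e-17). Tlr3, the receptor for double-stranded RNA, rose from 15.4 ± 2.36 CPM to 141 ± 30.6 CPM (log2 fold change 3.19 ± 0.18, adjusted p = 2.7e-16), with 267 ± 27.4 CPM at 5 h, a difference that was not called.

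Feedback regulators of the pathway were mostly called higher than at 0 h. Of 30 tested feedback genes, 17 were called higher and 3 lower. Against 5 h, 2 were called higher and 17 lower. Socs3, an inhibitor of JAK kinases downstream of cytokine receptors, was measured at 1.30, 1.30, 0.530 and 1.31 CPM at 0 h and 145, 157, 122 and 154 CPM at 18 h. Socs3 had a log2 fold change of 6.99 ± 0.25 (adjusted p = 4.0e-21). Usp18, which removes the ubiquitin-like ISG15 and desensitises the interferon receptor, was measured at 6.57, 5.51, 10.1 and 6.17 CPM at 0 h and 546, 598, 529 and 553 CPM at 18 h. Usp18 had a log2 fold change of 6.30 ± 0.16 (adjusted p = 7.8e-25). Socs3 had been at 1016 ± 14.7 CPM at 5 h, and Usp18 at 666 ± 7.00 CPM. Irak3, a kinase-like brake on MyD88 signalling, rose from 20.8 ± 1.97 CPM to 112 ± 5.79 CPM. Irak3 had a log2 fold change of 2.43 ± 0.15 (adjusted p = 8.2e-15). It had been at 59.1 ± 3.93 CPM at 5 h, a difference that was not called. The NF-kB inhibitor gene Nfkbia rose from 41.1 ± 3.98 CPM to 263 ± 16.0 CPM (log2 fold change 2.68 ± 0.07, adjusted p = 9.6e-24), and Tnfaip3, the deubiquitinase A20, was at 111 ± 5.57 CPM and 206 ± 13.9 CPM, just outside the call (log2 fold change 0.89 ± 0.06, adjusted p = 1.1e-14). The MAP kinase phosphatases Dusp4 (log2 fold change -3.38 ± 0.13, adjusted p = 2.1e-20) and Dusp5 (log2 fold change -4.28 ± 0.22, adjusted p = 6.7e-17) were called lower.

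Immediate-early genes, which respond to signals within minutes, held several of the deepest falls. Of 31 genes, 12 were called lower and 8 higher. Egr2 was measured at 118, 133, 115 and 117 CPM at 0 h and 0.366, 1.05, 0.609 and 0.691 CPM at 18 h. Egr2 had a log2 fold change of -7.46 ± 0.14 (adjusted p = 2.0e-27). Egr3, of the same family of zinc finger factors, was measured at 22.6, 30.7, 21.3 and 24.0 CPM at 0 h and 0.641, 0.286, 0.348 and 0.173 CPM at 18 h. Egr3 had a log2 fold change of -6.06 ± 0.27 (adjusted p = 1.3e-18). Their means were highest at 1 h, 542 ± 32.4 CPM and 83.4 ± 9.56 CPM, and already below 0 h at 5 h, 37.0 ± 2.17 CPM and 3.73 ± 0.795 CPM. Nr4a1, which encodes Nur77, followed the same course, with 19.4, 15.5, 25.7 and 18.1 CPM at 0 h and 0.366, 0.477, 0.174 and 0.259 CPM at 18 h (log2 fold change -5.91 ± 0.31, adjusted p = 6.7e-17), 437 ± 60.3 CPM at 1 h and 0.933 ± 0.115 CPM at 5 h. Its relative Nr4a3 also fell, from 0.816 ± 0.192 CPM to 0.244 ± 0.125 CPM (log2 fold change -1.65 ± 0.49, adjusted p = 0.0038), and Nr4a2 was not called, at 1.41 ± 0.194 CPM and 2.23 ± 0.369 CPM. Among those called higher was Batf, a partner of IRF factors at composite sites, which rose from 2.23 ± 0.720 CPM to 55.4 ± 6.05 CPM. Batf had a log2 fold change of 4.65 ± 0.16 (adjusted p = 1.9e-21). It had been at 33.2 ± 1.38 CPM at 5 h and was not called against that time.

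Cell cycle genes formed the largest block of falls. Of 52 genes of mitosis and the G2/M phase, 48 were called lower and 1 higher, with a median log2 fold change of -3.43, and of 50 genes of DNA replication and the G1/S transition 35 were lower and none higher (-1.62). Rrm2, a subunit of the enzyme that makes deoxynucleotides, was measured at 56.2, 61.7, 55.1 and 54.7 CPM at 0 h and 0.916, 0.477, 0.870 and 1.04 CPM at 18 h. Rrm2 had a log2 fold change of -6.08 ± 0.17 (adjusted p = 8.8e-24). Ube2c, which tags cyclins for destruction at the end of mitosis, was measured at 17.7, 21.8, 19.4 and 19.3 CPM at 0 h and 0.275, 0.0954, 0.348 and 0.0864 CPM at 18 h. Ube2c had a log2 fold change of -6.53 ± 0.21 (adjusted p = 5.4e-22). The proliferation marker Mki67 was measured at 181, 184, 136 and 151 CPM at 0 h and 29.4, 30.5, 41.1 and 32.6 CPM at 18 h. Mki67 had a log2 fold change of -2.29 ± 0.22 (adjusted p = 9.4e-11). All 3 had lower values in each library at 18 h than in any at 0 h. Other large falls were those of the thymidine kinase Tk1 (log2 fold change -4.44 ± 0.28, adjusted p = 8.4e-15), the thymidylate synthase Tyms (log2 fold change -3.74 ± 0.17, adjusted p = 1.2e-18) and the polymerase subunit Pole (log2 fold change -3.87 ± 0.15, adjusted p = 2.0e-20), and of the mitotic genes Stmn1, the member with the highest RPKM at 0 h (log2 fold change -4.69 ± 0.16, adjusted p = 1.2e-21), and Plk1 (log2 fold change -5.57 ± 0.20, adjusted p = 4.2e-21). Cenpf, a kinetochore gene, was measured at 20.0, 28.1, 19.5 and 17.8 CPM at 0 h and 0.183, 0, 0.174 and 0.173 CPM at 18 h, at least 79.0-fold lower with 18 h at the floor (adjusted p = 2.4e-15).

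Against 5 h, 33 of the 52 mitotic genes were called lower at 18 h and 2 higher. Of the 50 replication genes, 15 were lower than at 5 h and 9 higher, beside 14.3% and 15.9% of all tested genes. The share called higher was thus near the background. Some replication genes were not called against 0 h. Pcna, the sliding clamp and the list's member with the highest RPKM, was at 498 ± 35.5 CPM and 319 ± 25.3 CPM (log2 fold change -0.64 ± 0.07, adjusted p = 2.1e-09). With library totals Pcna was called lower, at -1.01. E2f1 was at 29.4 ± 1.52 CPM and 28.3 ± 3.91 CPM. The mitotic gene that went against the rest was Tpx2, a spindle assembly factor, at 48.6, 53.0, 44.9 and 45.4 CPM at 0 h and 139.7, 173, 159 and 138 CPM at 18 h. Tpx2 had a log2 fold change of 1.67 ± 0.14 (adjusted p = 6.8e-12). Its groups did not overlap.

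The E2F element, searched as TTTCCCGC and TTTGGCGC on either strand, was found in 1.56% of all promoters and 3.08% of those of the genes tested, in 10 of 36 promoters of the replication genes called lower and in 4 of 43 of the mitotic ones. The replication gene with the largest fall whose promoter holds it was Mcm7, a subunit of the replicative helicase, which went from 56.6 ± 1.49 CPM to 6.28 ± 0.414 CPM. Mcm7 had a log2 fold change of -3.17 ± 0.12 (adjusted p = 1.5e-20). The 250 bases before its start are given here (chr5:138171884-138172133, minus strand), with the element in capitals 165 bases before the start.
Mcm7: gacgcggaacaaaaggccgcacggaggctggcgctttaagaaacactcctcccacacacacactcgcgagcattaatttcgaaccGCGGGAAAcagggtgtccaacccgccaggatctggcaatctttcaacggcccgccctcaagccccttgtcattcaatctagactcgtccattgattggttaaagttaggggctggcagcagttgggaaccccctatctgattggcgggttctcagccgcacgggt

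Surface receptors of macrophages changed in both directions. Of 35 tested scavenger, lectin and Fc receptor genes, 15 were called higher and 11 lower, both above the background shares. Clec4e (Mincle), which binds mycobacterial glycolipids, was measured at 11.5, 14.4, 10.3 and 13.6 CPM at 0 h and 1107, 1044, 1574 and 1095 CPM at 18 h. Clec4e had a log2 fold change of 6.59 ± 0.22 (adjusted p = 8.0e-22). Marco, a scavenger receptor for bacteria, was measured at 1.68, 0.935, 0.908 and 1.16 CPM at 0 h and 79.0, 61.4, 63.5 and 77.7 CPM at 18 h (log2 fold change 5.92 ± 0.21, adjusted p = 3.3e-21), and Siglece, an inhibitory receptor for sialic acids, at 1.53, 1.14, 0.832 and 0.508 CPM at 0 h and 50.2, 44.4, 41.4 and 54.1 CPM at 18 h. Siglece had a log2 fold change of 5.54 ± 0.21 (adjusted p = 2.6e-20). Marco and Siglece changed late, with 4.08 ± 0.806 CPM and 2.01 ± 0.143 CPM at 5 h. The high-affinity IgG receptor Fcgr1 rose from 189 ± 22.2 CPM to 1636 ± 91.1 CPM. Fcgr1 had a log2 fold change of 3.11 ± 0.10 (adjusted p = 2.0e-22). On the other side, the mannose receptor Mrc1 was measured at 1119, 1195, 1024 and 1046 CPM at 0 h and 58.4, 57.6, 74.6 and 53.6 CPM at 18 h (log2 fold change -4.17 ± 0.14, adjusted p = 7.9e-22), and the haemoglobin scavenger receptor Cd163 at 15.2, 11.3, 13.2 and 13.2 CPM at 0 h and 0.183, 0.0954, 0.0870 and 0.173 CPM at 18 h. No library at 18 h had more than 3 counts of Cd163, which was at least 48.9-fold lower than at 0 h (adjusted p = 8.9e-19). Mrc1 had still been at 943 ± 39.6 CPM at 5 h. Cd36, which takes up oxidised lipids, fell from 3011 ± 196 CPM to 877 ± 166 CPM (log2 fold change -1.78 ± 0.13, adjusted p = 2.7e-13), and Trem2, a lipid-sensing receptor, from 631 ± 57.3 CPM to 169 ± 16.3 CPM. Trem2 had a log2 fold change of -1.90 ± 0.14 (adjusted p = 4.6e-13).

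Of 36 tested receptors for chemoattractants and cytokines, 15 were called higher and 6 lower. The share called higher was above the background of 13.1%, and the share called lower was near the background of 14.3%. Fpr1 and Fpr2, the receptors for bacterial formyl peptides, were measured at 0.992, 0.104, 0.605 and 1.23 CPM at 0 h and 90.3, 91.0, 97.2 and 90.5 CPM at 18 h (log2 fold change 7.06 ± 0.26, adjusted p = 1.2e-20) and 1.22, 0.831, 1.36 and 1.02 CPM at 0 h and 153, 147, 180.2 and 149 CPM at 18 h (log2 fold change 7.17 ± 0.27, adjusted p = 2.5e-20), respectively. Both also exceeded their means at 5 h, 16.6 ± 1.29 CPM and 68.8 ± 9.60 CPM. The complement receptor C5ar1 fell from 655 ± 47.6 CPM to 84.7 ± 3.89 CPM (log2 fold change -2.95 ± 0.07, adjusted p = 4.8e-25), and the monocyte chemokine receptor Ccr2 from 48.0 ± 6.82 CPM to 9.92 ± 1.99 CPM. Ccr2 had a log2 fold change of -2.28 ± 0.19 (adjusted p = 4.6e-12). Tnfrsf1b, the gene of the TNF receptor TNFR2, was the member with the highest RPKM at 18 h and rose from 481 ± 52.9 CPM to 4125 ± 182 CPM. Tnfrsf1b had a log2 fold change of 3.10 ± 0.11 (adjusted p = 2.1e-21). Adora2a, the adenosine receptor that restrains macrophages, rose from the floor to 26.6, 28.2, 22.6 and 28.2 CPM, at least 127-fold higher (adjusted p = 6.4e-20). Csf1r, the receptor of the growth factor in the culture medium, was at 1851 ± 224 CPM and 1149 ± 66.9 CPM and was not called. With library totals it was called lower, with a log2 fold change of -1.05.

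Cell death genes leaned upward, with 17 of 30 higher and 1 lower (4 with library totals, 2 without replicate 2 at 18 h). Mefv, the gene of the inflammasome sensor pyrin, rose from 2.07 ± 0.444 CPM to 39.8 ± 3.52 CPM (log2 fold change 4.27 ± 0.19, adjusted p = 8.7e-19), and Casp1, the protease that matures interleukin-1 beta, from 102 ± 5.48 CPM to 658 ± 55.8 CPM. Casp1 had a log2 fold change of 2.69 ± 0.13 (adjusted p = 4.3e-18). Nlrp3, the sensor that LPS primes, had been at 897 ± 57.3 CPM at 5 h and was at 81.2, 86.0, 81.3 and 86.6 CPM at 18 h, against 90.7, 86.8, 93.7 and 93.5 CPM at 0 h (log2 fold change -0.12 ± 0.08, adjusted p = 0.18). The survival gene Cflar, an inhibitor of caspase-8, rose from 91.6 ± 9.29 CPM to 956 ± 118 CPM (log2 fold change 3.38 ± 0.12, adjusted p = 8.7e-21), and Bcl2a1d from 7.85 ± 1.55 CPM to 90.6 ± 5.05 CPM (log2 fold change 3.54 ± 0.14, adjusted p = 1.2e-19), a member of a family of near-identical copies whose reads are uncertain.

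The genes of prostaglandin synthesis were regulated in both directions. Ptgs2, the inducible cyclooxygenase, was measured at 1.83, 2.39, 0.757 and 1.74 CPM at 0 h and 81.9, 92.9, 130 and 94.5 CPM at 18 h (log2 fold change 5.84 ± 0.24, adjusted p = 1.4e-19), below its 985 ± 117 CPM at 5 h. Ptges, the inducible synthase of prostaglandin E2, rose from 1.75 ± 0.382 CPM to 103 ± 5.60 CPM. Ptges had a log2 fold change of 5.86 ± 0.13 (adjusted p = 1.3e-25). It was not called against 5 h, when it was at 53.3 ± 1.96 CPM. Ptgs1, the constitutive cyclooxygenase, fell (log2 fold change -2.77 ± 0.21, adjusted p = 7.2e-13), and Hpgd, the enzyme that inactivates prostaglandins, was measured at 3.89, 4.41, 4.54 and 2.69 CPM at 0 h and 0, 0, 0.0870 and 0.0864 CPM at 18 h, at least 14.4-fold lower with 18 h at the floor (adjusted p = 1.1e-10). In all, 6 of 15 tested genes were called higher and 3 lower (7 with library totals).

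Genes of central metabolism differed by list. Of 30 glycolysis and glucose uptake genes, 9 were higher (5 with library totals), above the 13.1% background, and 4 lower, near the 14.3% background. They included the sugar carrier Slc2a6, measured at 5.42, 7.74, 8.32 and 7.91 CPM at 0 h and 192, 205, 164 and 212 CPM at 18 h (log2 fold change 4.71 ± 0.29, adjusted p = 3.7e-15), the regulator Pfkfb3 (log2 fold change 2.81 ± 0.07, adjusted p = 2.1e-24) and the hexokinase Hk3 (log2 fold change 1.88 ± 0.17, adjusted p = 2.5e-11), while the lactate and pyruvate carrier Slc16a1 fell (log2 fold change -2.40 ± 0.11, adjusted p = 6.5e-18). Aldoa, the member with the highest RPKM, was at 758 ± 53.9 CPM and 1104 ± 95.3 CPM and not called. Gapdh, which has many processed copies in the mouse genome, was listed at only 1.80 ± 0.735 RPKM and 2.73 ± 1.25 RPKM, and its level cannot be read from these counts. Of 25 tested genes of the tricarboxylic acid cycle and related enzymes, 5 were called lower, beside 14.3% of all tested genes, and none higher. The median log2 fold change of these 25 genes was -0.06. Those called lower included Idh1, the cytosolic isocitrate dehydrogenase (log2 fold change -1.08 ± 0.08, adjusted p = 9.2e-13). They also included the mitochondrial isocitrate dehydrogenases Idh2 (log2 fold change -1.90 ± 0.09, adjusted p = 1.7e-17) and Idh3a (log2 fold change -1.47 ± 0.09, adjusted p = 2.9e-15). The others were the succinyl-CoA ligase subunit Suclg2 (log2 fold change -1.48 ± 0.11, adjusted p = 3.4e-13) and the fumarase Fh1 (log2 fold change -1.36 ± 0.09, adjusted p = 1.4e-14). Of 62 nuclear genes of the respiratory chain, 1, Cox5a, was called higher (log2 fold change 1.17 ± 0.10, adjusted p = 2.1e-11) and none lower, both shares well under the background. With library totals none was called higher, Cox5a being at 0.80, and 4 were called lower. The list's median log2 fold change was -0.06.

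Genes of antioxidant defence and iron handling included late rises. Of 30 tested, 17 were called higher (11 with library totals) and 3 lower, and against 5 h 11 were higher and 3 lower. Hmox1, the haem oxygenase, was measured at 428, 429, 470.2 and 463 CPM at 0 h and 2657, 2817, 2399.7 and 2762 CPM at 18 h (log2 fold change 2.57 ± 0.13, adjusted p = 1.3e-17), with 240.4 ± 12.2 CPM at 5 h (log2 fold change 3.47 ± 0.13, adjusted p = 3.4e-20). Fth1 was measured at 11472, 11707, 12276 and 12307 CPM at 0 h and 30108, 30541, 28446 and 29737 CPM at 18 h. Fth1 had a log2 fold change of 1.32 ± 0.08 (adjusted p = 7.4e-16). With library totals its log2 fold change was within the limit, at 0.95. At 5 h it was at 12166 ± 499 CPM. At 5 h the mean of Hmox1 was below that at 0 h and the mean of Fth1 close to it. Sod2, the mitochondrial superoxide dismutase, rose from 51.2 ± 4.54 CPM to 975 ± 30.9 CPM (log2 fold change 4.25 ± 0.08, adjusted p = 2.0e-27), and the cystine carrier Slc7a11 from 2.87 ± 0.242 CPM to 37.0 ± 14.3 CPM. Slc7a11 had a log2 fold change of 3.69 ± 0.24 (adjusted p = 1.5e-14). Tfrc, the transferrin receptor for iron uptake, fell from 248 ± 18.4 CPM to 45.3 ± 13.6 CPM (log2 fold change -2.45 ± 0.16, adjusted p = 1.8e-14), and the iron exporter Slc40a1, with 15.5 ± 2.28 CPM at 5 h, was at 181 ± 16.0 CPM at 18 h against 244 ± 22.3 CPM at 0 h and not called.

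Genes of ATF4 and the unfolded protein response were called in part. Trib3, a pseudokinase induced by ATF4, was measured at 1.91, 1.66, 1.29 and 2.10 CPM at 0 h and 16.9, 18.6, 14.0 and 14.2 CPM at 18 h (log2 fold change 3.19 ± 0.23, adjusted p = 2.2e-13), and Ddit3, the factor CHOP, at 21.9, 20.0, 17.7 and 21.3 CPM at 0 h and 115, 116, 107 and 112 CPM at 18 h. Ddit3 had a log2 fold change of 2.48 ± 0.11 (adjusted p = 9.2e-19). Both were lower at 5 h than at 18 h, at 0.804 ± 0.377 CPM and 9.32 ± 0.899 CPM. Chaperones of the endoplasmic reticulum on the same list, such as Calr, the member with the highest RPKM (909 ± 37.5 CPM and 1028 ± 13.2 CPM), and Hsp90b1 (772 ± 14.3 CPM and 909.8 ± 77.7 CPM), were not called. Nor were several genes of amino acid supply that ATF4 is known to induce, among them Psat1 (66.2 ± 5.90 CPM and 51.9 ± 3.72 CPM) and Phgdh (5.90 ± 0.423 CPM and 8.70 ± 0.796 CPM), while Shmt2, a mitochondrial enzyme of serine use, was called lower (log2 fold change -1.56 ± 0.19, adjusted p = 1.5e-08). Other genes of amino acid supply on the list, Asns and Slc3a2, were called higher (log2 fold change 1.66 and 1.52), as was Atf4 itself (1.46). In all, 9 of 33 genes were called higher and 1 lower, and against 5 h 10 were higher and 1 lower.

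Lipid and lysosomal genes were called in both directions. Nr1h3, the oxysterol receptor LXR alpha, was measured at 10.8, 8.73, 10.6 and 11.6 CPM at 0 h and 89.4, 94.0, 76.3 and 107 CPM at 18 h (log2 fold change 3.14 ± 0.19, adjusted p = 3.9e-15), while the fatty acid receptor gene Pparg fell from 57.5 ± 3.94 CPM to 10.1 ± 0.811 CPM. Pparg had a log2 fold change of -2.50 ± 0.11 (adjusted p = 6.0e-19). Of a list of 24 LXR targets, lipid efflux genes and other lipid genes, 2 were higher (1 with library totals) and 6 lower (10 with library totals). The lower ones included the fatty acid synthase Fasn (log2 fold change -1.93 ± 0.17, adjusted p = 1.6e-11) and the lipoprotein lipase Lpl, which was among the most abundant of all genes called lower and went from 8147 ± 653 CPM to 2496 ± 314 CPM. Lpl had a log2 fold change of -1.71 ± 0.13 (adjusted p = 1.3e-12). With TMM, the efflux genes Abca1, Abcg1 and Apoe were not called (log2 fold change -0.63, 0.64 and -0.92). Their calls with library totals, which moved the median gene to -0.37, are not given here. Ch25h, which makes 25-hydroxycholesterol, had been at 47.7 ± 5.75 CPM at 5 h and was at 2.78 ± 0.214 CPM at 18 h against 0.130 ± 0.124 CPM at 0 h (log2 fold change 4.27 ± 0.35, adjusted p = 5.0e-12). Among 27 genes of cholesterol synthesis and uptake, 3 were higher and 2 lower (6 with library totals), with TMM shares under the background. Of 46 lysosomal genes, 6 were higher (3 with library totals) and 5 lower (8 with library totals), with shares near or under the background. They were led by the protease Ctsc, at 129.7, 121, 144 and 132 CPM at 0 h and 1646, 1671, 1806 and 1634 CPM at 18 h (log2 fold change 3.68 ± 0.09, adjusted p = 5.8e-25), and by Atp6v0d2, a subunit of the proton pump, which fell from 737 ± 21.4 CPM to 156 ± 33.6 CPM. Atp6v0d2 had a log2 fold change of -2.24 ± 0.20 (adjusted p = 3.1e-11). Psap, the abundant precursor of the saposins, was at 12491 ± 1710.5 CPM and 16498 ± 887 CPM and not called.

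Some of the largest changes lay outside the lists. Among the 10 largest rises of genes above the floor at 0 h were Slfn4, a member of the Schlafen family, at 0.992, 1.04, 0.757 and 0.581 CPM at 0 h and 744, 729, 537 and 727 CPM at 18 h (log2 fold change 9.63 ± 0.30, adjusted p = 1.4e-22), the membrane protein gene Ms4a4c, at 4.50, 3.95, 4.69 and 2.90 CPM at 0 h and 1172, 1231, 1561 and 1117 CPM at 18 h (log2 fold change 8.31 ± 0.23, adjusted p = 9.4e-24), and the chloride channel family gene Clic5 (log2 fold change 8.80 ± 0.19, adjusted p = 4.7e-26). All 3 were higher at 18 h than at 5 h, when Slfn4 had 90.7 ± 31.5 CPM, Ms4a4c 215 ± 34.0 CPM and Clic5 17.5 ± 2.22 CPM. Lipg, the endothelial lipase, rose from 0.193 ± 0.195 CPM to 63.5 ± 8.82 CPM (log2 fold change 8.22 ± 0.24, adjusted p = 4.8e-23) and had passed through 342 ± 19.5 CPM at 5 h. The 2 genes Rasgrp1 and Rasgrp3, which encode exchange factors that activate RAS proteins, moved in opposite directions. Rasgrp1 was measured at 0.153, 0.104, 0.454 and 0.436 CPM at 0 h and 63.9, 68.8, 92.8 and 71.2 CPM at 18 h. Rasgrp1 had a log2 fold change of 8.04 ± 0.25 (adjusted p = 3.0e-22). Rasgrp3 was measured at 140.5, 165, 133 and 143 CPM at 0 h and 1.28, 1.14, 1.74 and 1.21 CPM at 18 h. Rasgrp3 had a log2 fold change of -6.74 ± 0.13 (adjusted p = 2.0e-27). At 0 h Rasgrp3 stood at 31.2 ± 3.01 RPKM and Rasgrp1 at 0.0548 ± 0.0352 RPKM, and at 18 h at 0.289 ± 0.0581 RPKM and 14.2 ± 2.44 RPKM, so that the order of the 2 genes was reversed.

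Among the largest falls were also the orphan receptor gene Gprc5c, at 33.0, 32.3, 45.2 and 38.9 CPM at 0 h and 0.183, 0.286, 0.609 and 0.345 CPM at 18 h (log2 fold change -6.66 ± 0.33, adjusted p = 2.0e-17), the growth factor gene Hbegf, at 24.7, 31.1, 28.0 and 29.2 CPM at 0 h and 0.275, 0.572, 0.522 and 0.432 CPM at 18 h (log2 fold change -5.94 ± 0.18, adjusted p = 1.4e-22), the neutral sphingomyelinase gene Smpd3 (log2 fold change -6.17 ± 0.27, adjusted p = 7.0e-19) and Fam78b (log2 fold change -5.85 ± 0.20, adjusted p = 1.6e-21). They differed in timing, since Gprc5c and Hbegf were still at 35.8 ± 2.83 CPM and 89.6 ± 6.02 CPM at 5 h, whereas Smpd3 and Fam78b were already at 1.05 ± 0.146 CPM and 3.90 ± 0.453 CPM. Besides Lpl, the most abundant genes called lower, by RPKM at 0 h, were Spp1, the secreted protein osteopontin, from 5977 ± 621 CPM to 2223 ± 221 CPM (log2 fold change -1.43 ± 0.13, adjusted p = 5.4e-11), Selenop, a selenium carrier (log2 fold change -2.19 ± 0.19, adjusted p = 1.2e-11), Anxa1, the gene of annexin A1 (log2 fold change -1.67 ± 0.08, adjusted p = 2.9e-18), and Lgals1, the gene of galectin-1 (log2 fold change -1.32 ± 0.12, adjusted p = 7.6e-11).

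A last set belongs to the interval after 5 h. The genes with the largest rise from 5 h to 18 h among those called higher at 18 h than at both 0 h and 5 h were, besides Siglece, Wnk2, Gdf15, Per2, Rims3, Narf, Tspoap1, Gpr55, A530064D06Rik and Arhgap27. Wnk2, a kinase gene of the WNK family, was measured at 0.305, 0.0519, 0.0757 and 0.218 CPM at 0 h and 38.1, 35.9, 27.3 and 37.7 CPM at 18 h (log2 fold change 7.74 ± 0.37, adjusted p = 1.1e-17), with 0.431 ± 0.390 CPM at 5 h (log2 fold change 6.28 ± 0.35, adjusted p = 6.9e-16). Gpr55, a receptor for lysophosphatidylinositol, was measured at 0.305, 0.312, 0 and 0.218 CPM at 0 h and 8.70, 10.4, 9.92 and 7.77 CPM at 18 h (log2 fold change 5.33 ± 0.38, adjusted p = 1.8e-13), with 0.406 ± 0.0517 CPM at 5 h. In these 2 genes and in Siglece, the means at 0, 1 and 5 h all stayed at a few CPM or less. In others, 5 h was a low point between 2 higher times. Narf was measured at 25.5, 20.9, 22.3 and 23.1 CPM at 0 h and 80.2, 79.3, 84.8 and 84.0 CPM at 18 h (log2 fold change 1.84 ± 0.12, adjusted p = 6.4e-15), with 3.00 ± 0.399 CPM at 5 h, and Per2, a gene of the circadian clock, at 1.37, 1.77, 0.757 and 1.74 CPM at 0 h and 10.3, 8.30, 11.1 and 9.41 CPM at 18 h (log2 fold change 2.76 ± 0.23, adjusted p = 3.5e-12), with 0.267 ± 0.204 CPM at 5 h. Gdf15, a stress-induced cytokine, went from 7.04 ± 1.38 CPM at 0 h through 45.5 ± 8.80 CPM at 1 h and 0.462 ± 0.261 CPM at 5 h to 19.8 ± 5.03 CPM at 18 h (log2 fold change 1.47 ± 0.26, adjusted p = 1.0e-05).

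Markers of other cell types are given by their summed levels. The summed level of 12 neutrophil markers was 72.4 to 106.6 CPM at 0 h and 322.2 to 397.7 CPM at 18 h. Of the 7 tested, 1 was called higher, Csf3r, a receptor that macrophages also express, and 2 lower, Mmp8 and Ngp. Ngp was not called with DESeq2 (log2 fold change -0.98). Only 2 of the 12 markers, Ly6g and Elane, were at 3 counts or fewer in every library. The summed level of 9 dendritic cell markers was 57.3 to 65.7 CPM at 0 h and 505 to 693.1 CPM at 18 h. There 4 of 4 tested were called higher, Bst2, which is also on the antiviral list, Ccr7, Clec9a and Xcr1, and Cd209a was at the floor in every library. Bst2 alone went from 58.8 ± 3.66 CPM to 637 ± 94.1 CPM (log2 fold change 3.44 ± 0.26, adjusted p = 5.4e-13), while Clec9a reached 3.52 ± 0.707 CPM and Xcr1 2.40 ± 0.406 CPM. The summed level of 8 T or NK cell markers was 13.8 to 22.2 CPM at 0 h and 18.9 to 21.7 CPM at 18 h. Of the 2 tested, 1 was called higher, Lck. Only 2 of the 8 markers, Ncr1 and Klrb1c, both of NK cells, were at the floor in every library. The part of other cell types in the results above was not tested.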

How the data were processed

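RNA-seq of 32 BMDM libraries was deposited as 1 table of estimated counts per RefSeq transcript. The authors aligned paired reads to mm10 with HISAT2 2.1.0, removed those of low mapping quality with SAMtools and summed tags with HOMER. Libraries were strand-specific, and whether counting used the strand is not given in the sources used here. All deposited values are multiples of 0.5 (28.6% are not whole). Of 42361 transcripts, 93 could not be named and were left out (0.233% to 1.37% of a library's counts). Per gene (25067), the most abundant transcript on average was kept and its counts rounded to whole numbers, ties to the even one. Lengths came from GENCODE vM21, from another or the longest transcript of the gene where the same one was not listed.

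A gene was tested if its group mean exceeded 1 RPKM in any of the 8 groups (11272 genes). The test was edgeR 4.0.16 in R 4.3.3 (TMM, quasi-likelihood, 1 mean per group over 32 libraries). In counts simulated for 18 h against 0 h over 11272 genes, 87 of 100 genes changed 2-fold and 98 of 100 changed 4-fold reached an adjusted p below 0.05, with 13 false calls. The limit on the fold change was not applied there, so these counts do not describe the calls used here. Only the libraries of these 2 times were simulated and fitted. As many genes rose as fell and all other means were alike, so the simulation could not test how scaling affects the calls. Floors of 3 counts cover counting error only.

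The 28 gene lists (843 genes, 810 tested), the markers, motifs and the rule for named genes were chosen with earlier results of these data known. The rule names the 10 largest changes each way without overlap and above the floor, the 5 most abundant genes called higher and the 5 called lower, the 10 largest rises after 5 h, up to 4 leading members, the most abundant and the key members of each list, and Nr4a1, Nr4a2, Nr4a3, Tnf, Il1b, Il6, Il10, Il12b, Nos2, Acod1, Cd14, Tlr4, Mki67, Ciita and Arg1. Some genes under the rule are not reported here, and others were named after their values were seen. Alternatives were DESeq2 1.42.0, its size factors, filterByExpr, the compared libraries alone, a replicate block, summed transcripts, other limits, leaving out each library and, added after seeing the data, library totals.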

Additional observations from a re-analysis of the deposited data

Results flagged for a closer look

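For each of the 192 genes named, the 4 libraries of either group were examined for 1 library far from the others, that is, with a gap to the nearest other value, as a share of the group's range, above Dixon's critical value. Of the 384 groups of 4 values, 30 held such a library, and chance gives about 1 in 20. Replicate 3 at 18 h accounted for 15 of them. All values are CPM, with the range of the other 3 libraries of the group. Replicate 3 at 18 h was lowest for Aldoa 961 against 1148 to 1157, Bst2 496 against 683 to 685 and Ccl5 3356 against 4239 to 4294. That library was also lowest for Cox5a 146 against 165 to 166, Hk3 1046 against 1329.7 to 1373 and Slfn4 537 against 727 to 744. That library was also lowest for Stat2 1258 against 1334 to 1349.9. Replicate 3 at 18 h was highest for Canx 794 against 582 to 617, Clec4e 1574 against 1044 to 1107 and Fpr1 97.2 against 90.3 to 91.0. That library was also highest for Il1a 162 against 133 to 136, Irak3 120.5 against 108 to 109.5 and Selenop 966 against 663 to 708. That library was also highest for Slc7a11 58.3 against 28.2 to 32.0 and Tlr4 200.4 against 107 to 121. Replicate 2 at 18 h was lowest for Sod2 929 against 983 to 994. Replicate 2 at 18 h was highest for Il18bp 220.1 against 184 to 188, Lipg 76.6 against 57.4 to 60.4 and Tlr9 302 against 255 to 258. Replicate 4 at 18 h was highest for Ptges 112 against 100 to 101. Replicate 3 at 0 h was lowest for Socs3 0.530 against 1.30 to 1.31 and Tk1 13.9 against 17.4 to 18.1. Replicate 3 at 0 h was highest for Irf7 26.9 against 18.8 to 19.5 and Ngp 9.15 against 6.02 to 6.49. Replicate 1 at 0 h was lowest for Psmb10 31.6 against 38.5 to 39.4. Replicate 2 at 0 h was lowest for Ccl5 2.03 against 3.33 to 3.56, Cxcl9 2.29 against 3.82 to 3.93 and Psma5 43.6 against 61.1 to 63.6. Replicate 4 at 0 h was highest for Hk3 364 against 337 to 339 and Phgdh 6.53 against 5.61 to 5.75. The cause of these gaps was not tested.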

How the results depend on the processing

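With no limit on the fold change, 3645 genes were higher and 3826 lower at 18 h than at 0 h, and 4047 and 3747 against 5 h. With a limit of 2, these were 662, 624, 481 and 614. Library totals gave 1050 and 2591 against 0 h and 2512 and 1179 against 5 h. Of list members, they called 3 cytokine genes lower, 5 Toll-like receptor and adaptor genes higher and 1 lower, and 8 STAT and IRF genes higher. They also called 1 MHC class II gene higher, 7 prostaglandin genes lower, 4 cell death genes lower and 5 glycolysis genes higher. Of respiratory chain genes 0 were higher and 4 lower, and 6 cholesterol genes were lower. In the list of LXR targets and other lipid genes, 1 was higher and 10 lower. For lysosomal genes, 3 were higher and 8 lower, and 11 NRF2 genes were higher. With filterByExpr, 1 Toll-like receptor or adaptor gene was lower and 1 TCA cycle gene higher. With the compared libraries alone and with summed transcripts, 1 respiratory chain gene was lower. Leaving out 1 library gave 0 to 1 for that count (1 without replicate 2 at 0 h, or replicate 1 or 4 at 18 h) and 1 to 2 for cell death genes lower. It gave 1454 to 1491 genes higher and 1599 to 1636 lower against 0 h, and 1755 to 1804 and 1591 to 1681 against 5 h.

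Other counts stayed within 1.5 times their values. DESeq2 called 1537 genes higher and 1550 lower against 0 h. No named gene changed direction in its call. Besides the changes of call given with each gene, Ngp was not called with DESeq2 size factors (-0.98), without replicate 3 at 0 h (-0.87) or without replicate 1 (-0.89) or replicate 2 at 18 h. The calls of Abca1, Abcg1 and Apoe with library totals are not given. Replicate numbers did not pair the samples. Same-numbered deviations correlated at -0.155 to 0.131 between 18 h and 0 h, and not every sample correlated best with its own number. With the replicate number as a block, 1476 genes were higher and 1618 lower against 0 h, and 1784 and 1609 against 5 h. Depth limits genes near the floor of 3 counts, for which folds are bounds. The causes of these differences were not tested.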
